A study of Ramazzottius varieornatus and Hypsibius exemplaris with 16 samples.

Results

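The even targets of Ramazzottius varieornatus are transcript models whose read counts made up a similar share of the library in storage cells and in active whole animals. They were chosen from the 14532 targets of the species (35385 with those of the second species studied) by CPM, the estimated count of a target divided by the total of its library and scaled by 1e+06. A target was kept when its coding length was under 9000 bases, its CPM was above 0 in all 8 libraries, its highest CPM was at most 3 times its lowest, and the storage cell libraries lay neither all above nor all below the whole-body libraries. Of the 894 targets that met these conditions, the 150 with the highest mean CPM are described here. The choice used the CPM of all 8 libraries, so the closeness of the sample types on this scale is what defined the targets and is given as a description, without a test. On the deposited TPM values, which divide each count by the effective length of its target before scaling, 69 of the 150 met the same conditions, so the label holds on the CPM scale and for fewer targets on TPM.

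Storage cells of tardigrades are free cells that float in the fluid of the body cavity and hold reserves such as lipid and glycogen. An intact tardigrade contains its own storage cells together with epidermis, muscle, gut, nervous system and gonad, so a whole-body library is a mixture that includes the cells it is compared with. A transcript can take up the same share of both kinds of library when most cells carry it at a like level, and also when storage cells and the remaining tissues happen to balance. In bulk RNA, fewer cells of a type and less RNA per cell cannot be told apart.

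The study compared storage cells with active whole bodies in R. varieornatus and in a second tardigrade, Hypsibius exemplaris. For R. varieornatus there were 5 storage cell libraries and 3 active whole-body libraries, all of strain YOKOZUNA-1 from stocks fed Chlorella vulgaris on agar at 22 °C; H. exemplaris was kept at 18 °C. The description of each active library also carries a tag naming Chlorella and a number of hours, which the storage cell libraries lack and whose meaning the labels do not give. Storage cells were released by dissection in dilute PBS, aspirated and lysed directly in the SMART-Seq v.4 buffer, whereas active animals were homogenised and lysed with TRIzol, and purified RNA entered the same amplification. The preparation differed together with the sample type, and their effects cannot be told apart. The labels give neither the number of animals or cells in a library nor the activity state of the dissected animals, and whether replicates came from separate cultures is not said. None of the target identifiers was found in the reference gene table (0 matches), so targets are given by identifier, and the defining markers of storage cells were not checked.

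Storage cell libraries held 8228370 to 11174369 estimated counts and whole-body libraries 5404555 to 5601269. The lowest count of any of the 150 targets in any library was 467 and the median of their lowest counts was 843, so counting error was small beside the differences between libraries. Storage cell replicate 5 stood apart in composition: 35.9% of its counts fell on its 10 highest targets, where the other 4 storage cell libraries had 12.4% to 14.5% and whole bodies 20.3% to 21.3%. Its scaling factor by the trimmed mean of M-values (TMM), which corrects library sizes for composition, was 0.667, where those of replicates 1 to 4 were 0.877 to 1.17 and those of whole bodies 1.04 to 1.09.

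The 150 targets were abundant but not dominant. Their mean CPM over the 8 libraries ran from 117 to 5099 with a median of 173, and they held ranks 16 to 1407 among all targets by mean CPM. Together they made up 4.58% ± 0.62 of the counts in storage cells (SD, n = 5) and 4.35% ± 0.057 in whole bodies (SD, n = 3). The storage cell libraries held 4.33%, 4.07%, 5.60%, 4.72% and 4.17% in replicates 1 to 5, and the whole bodies 4.34%, 4.29% and 4.41%. Storage cell replicate 3 was the highest of all 8 libraries, and the groups overlapped. The difference of 0.234 percentage points was below the SD of the storage cell libraries, and it was -0.021 percentage points without replicate 3.

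**Figure D1:**
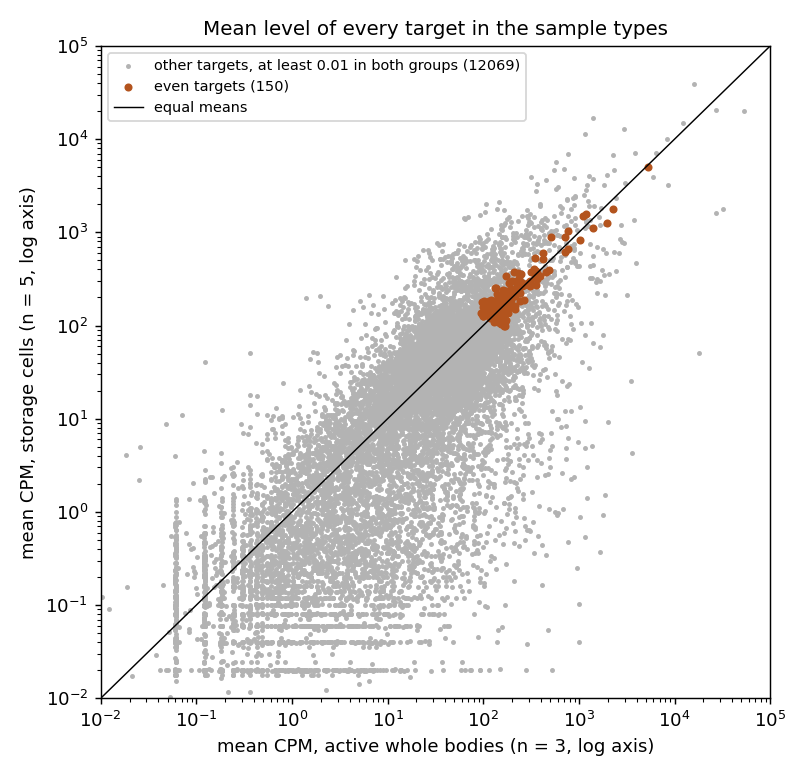
Mean CPM of each target in storage cells (vertical, n = 5) against active whole bodies (horizontal, n = 3), both on log axes, for targets of at least 0.01 CPM in both groups. The 150 even targets (coloured) lie along the line of equal means at whole-body means between 95.4 and 5217 CPM, and other targets (grey) spread far below and above it.

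Even targets were a minority at this level of abundance. Of the 1407 targets with a mean CPM at or above that of the last of the 150, 1005 exceeded the limit of 3 between the highest and the lowest library. Among these 1005, 393 had all storage cell libraries above all whole bodies, 176 had all of them below, and 436 had overlapping groups with a wide spread. A further 144 had no count in some library and 19 were too long. The remaining 89 were within the limit of 3 but had the groups apart, 71 with storage cells higher and 18 with storage cells lower. Over all levels, 1189 of the 7113 targets with CPM above 0 in all 8 libraries (16.7%) stayed within the limit of 3, and 224 of them were set aside with storage cells higher and 71 with storage cells lower. The length limit removed no target that met the other conditions.

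The share of even targets depended on the level. It was 1.42% of the targets between 1 and 10 CPM, 15.0% between 50 and 100 CPM, 14.4% between 100 and 200 CPM and 4.89% above 500 CPM, where 13 of 266 targets met the rule. At low levels most targets failed because some library had no count: among 2824 targets between 1 and 10 CPM, 831 were above 0 in all 8 libraries. Above 500 CPM, 242 of 266 targets were above 0 in all 8 libraries, but only 20 stayed within the limit of 3.

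**Figure D2:**
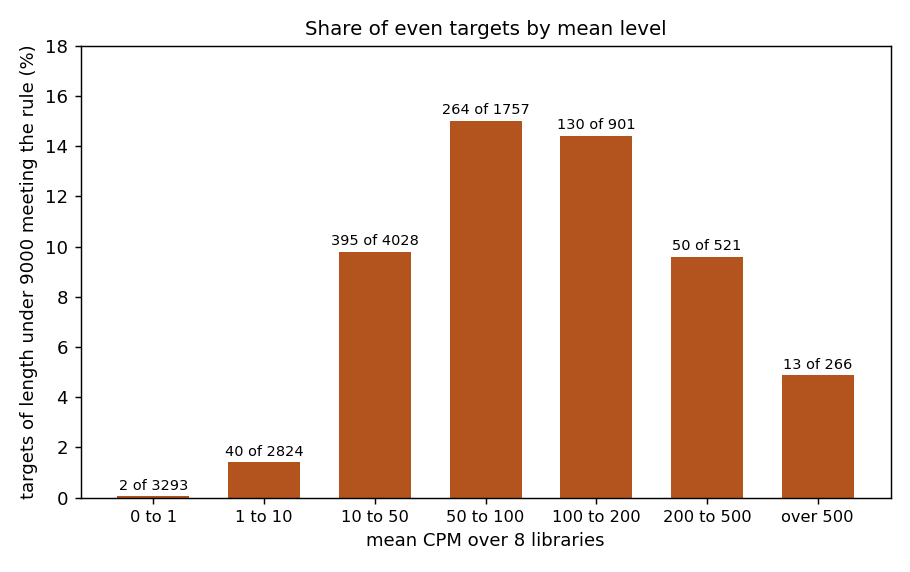
Percent of R. varieornatus targets with a length under 9000 bases that met the rule before the 150 highest were taken (vertical), by mean CPM over the 8 libraries (horizontal), with the numbers above each bar. The share is highest between 50 and 200 CPM, at 14.4% to 15.0%, and falls to 4.89% above 500 CPM.

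The leading target was g12582.t1, with a coding length of 1392 bases. It had 3096, 3247, 6966, 5894 and 5938 CPM in storage cell replicates 1 to 5, against 5470, 4949 and 5230 CPM in the whole bodies. Replicates 1 and 2 lay below every whole body and the other 3 storage cell libraries above, so the means of 5028 ± 1749 CPM in storage cells (SD, n = 5) and 5217 ± 261 CPM in whole bodies (SD, n = 3) were close while the storage cell libraries differed 2.25-fold. It was also the leading target per length, with 2893 ± 907 TPM in storage cells (SD, n = 5) and 4524 ± 227 TPM in whole bodies (SD, n = 3).

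Target g2603.t1 (2541 bases) ranked next, with 1251, 1220, 2571, 1816 and 1974 CPM in storage cells and 2273, 2101 and 2382 CPM in whole bodies. Only storage cell replicate 3 exceeded the whole bodies, and the other 4 storage cell libraries lay below them. Target g13070.t1 (2058 bases) had 2240, 1562, 799, 768 and 898 CPM in storage cells, against 1950, 1833 and 2134 CPM in whole bodies. Here storage cell replicate 1 was the highest library, and replicates 2 to 5 were below all whole bodies. Target g1073.t1 (1647 bases) showed the opposite arrangement, with 1520, 1028, 1754, 1782 and 1775 CPM in storage cells and 1176, 1146 and 1203 CPM in whole bodies. Replicate 2 alone lay below the whole bodies, and the other 4 storage cell libraries were above them.

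The remaining targets of the leading 8 showed the same wide storage cell range. Target g9974.t1 (3615 bases) had 692, 1776, 1951, 1918 and 1140 CPM in storage cells, against 1076, 1052 and 1173 CPM in whole bodies. Storage cell replicates 2, 3 and 4 were high, replicate 5 was among the whole bodies, and replicate 1 was low. Target g10916.t2 (3285 bases) had 810, 688, 1976, 1109 and 932 CPM in storage cells, against 1449, 1445 and 1357 CPM in whole bodies, with storage cell replicate 3 again the only one above. Target g2464.t1 (3147 bases) had 776, 549, 1572, 781 and 1475 CPM in storage cells and 839, 819 and 672 CPM in whole bodies, so that replicates 3 and 5 lay above the whole bodies, replicate 2 below, and replicates 1 and 4 among them. Target g2388.t1 (1080 bases) had 777, 480, 1392, 764 and 677 CPM in storage cells and 995, 1066 and 990 CPM in whole bodies, once more with only replicate 3 above.

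**Figure D3:**
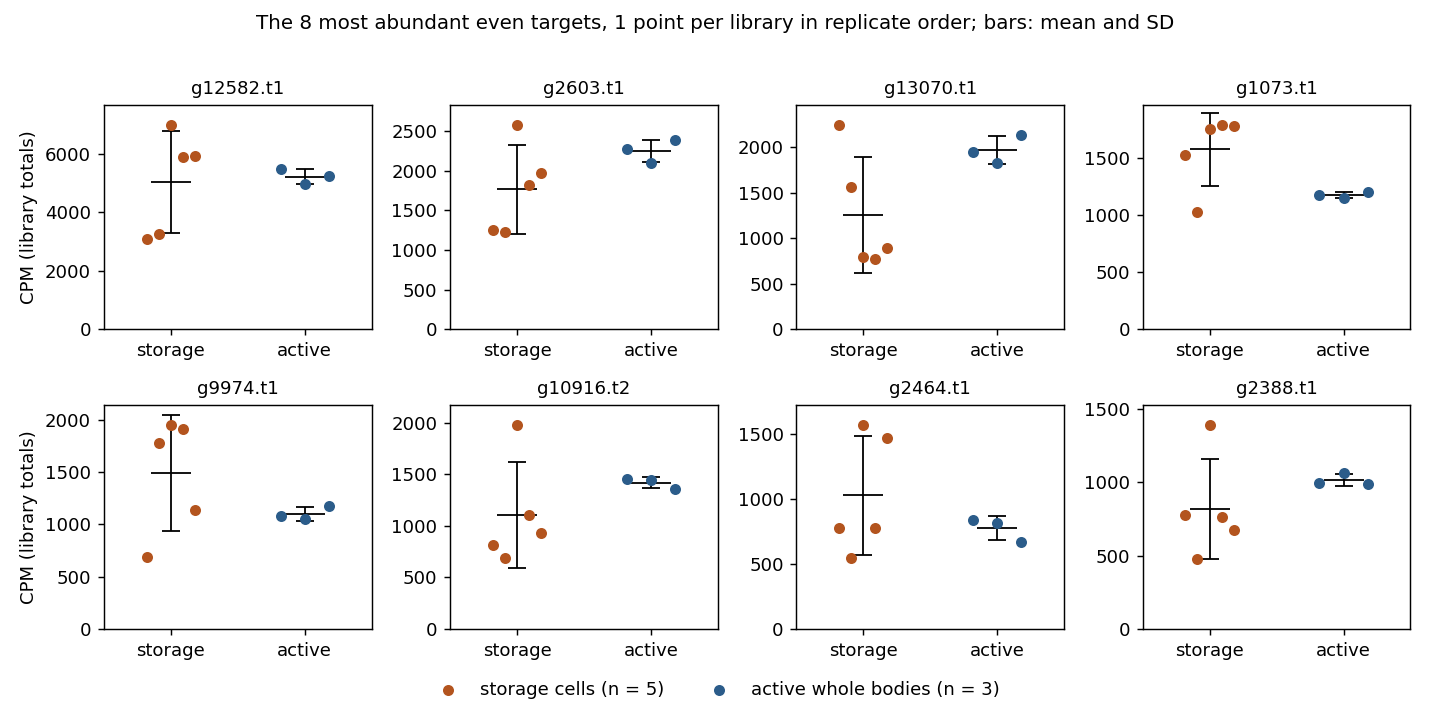
CPM (vertical, from 0) of the 8 most abundant even targets in each of the 5 storage cell libraries (left in each panel) and 3 active whole-body libraries (right), with mean and SD as black bars. In every panel the storage cell points spread over more than the whole-body points and lie on both sides of them or among them, as for g12582.t1 with 3096 to 6966 CPM in storage cells and 4949 to 5470 CPM in whole bodies.

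Levels of different targets can be compared only per length. By mean TPM, the leading targets after g12582.t1 that are not among the 8 above were short. Target g12592.t1 (711 bases) had 1350 ± 393 TPM in storage cells (SD, n = 5) and 1221 ± 137 TPM in whole bodies (SD, n = 3). Target g13805.t1 (738 bases) had 561 ± 140 TPM in storage cells (SD, n = 5) and 1102 ± 43.3 TPM in whole bodies (SD, n = 3), and all its storage cell libraries, at 321 to 677 TPM, were below the whole bodies, at 1052 to 1129 TPM. Target g3075.t1, the shortest of the 150 with 624 bases, had 717 ± 245 TPM in storage cells (SD, n = 5) and 687 ± 11.7 TPM in whole bodies (SD, n = 3), with the groups overlapping. The longest, g3653.t1 with 5973 bases, had 20.8 ± 4.36 TPM in storage cells (SD, n = 5) and 23.4 ± 0.83 TPM in whole bodies (SD, n = 3). The mean TPM of the 150 targets over the 8 libraries ran from 21.7 to 3505 TPM.

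The targets closest to constant differed by about 1.5-fold between their extreme libraries. Target g7004.t1 (1041 bases) had the smallest ratio of highest to lowest CPM, 1.46, with 248, 305, 248, 326 and 224 CPM in storage cells and 269, 255 and 282 CPM in whole bodies. Its whole bodies lay inside the storage cell range, and its group means of 270 ± 43.1 CPM in storage cells (SD, n = 5) and 269 ± 13.7 CPM in whole bodies (SD, n = 3) differed by a ratio of 1.00. Target g4478.t1 (1098 bases, ratio 1.51) had 199, 263, 252, 283 and 240 CPM in storage cells and 200.2, 200.2 and 187 CPM in whole bodies. Storage cell replicate 1 fell among its whole bodies and the other 4 storage cell libraries lay above them. Target g13480.t1 (1437 bases, ratio 1.52) had 125, 167, 130, 148.8 and 182 CPM in storage cells and 127, 120 and 131 CPM in whole bodies, with storage cell replicates 2, 4 and 5 above.

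Most of the 150 were nearer to the limit. The median ratio of highest to lowest CPM was 2.34, 45 targets were over 2.5, 37 were at most 2 and only g7004.t1 was at most 1.5. Just inside the limit of 3 were g8767.t1 with a ratio of 2.99, g9627.t1 with 2.99 and g704.t1 with 2.97. Target g9627.t1 had 160, 181, 287, 121 and 96.2 CPM in storage cells and 147, 171 and 137 CPM in whole bodies, and g704.t1 had 109, 164, 317, 323 and 236 CPM in storage cells and 177, 159 and 179 CPM in whole bodies. In both, the storage cell libraries alone spanned the whole ratio. Just outside it, with overlapping groups and a sufficient mean CPM, were g7059.t1 with 3.00 (unrounded, above the limit), g10793.t1 with 3.01 and g8738.t1 with 3.01. At the abundance limit, g3560.t1 and g13012.t1 were the last targets taken with mean CPM of 116.96 and 116.91, and g4274.t1 and g13122.t1, with 116.84 and 116.72, were the first left out.

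The spread of these CPM values was among those the rule used, and it is given as a description. The median coefficient of variation of the 150 targets was 31.9% among storage cell libraries and 5.55% among whole bodies. The ratio of highest to lowest CPM within storage cells had a median of 2.29 and within whole bodies of 1.11, although 5 libraries tend to span more than 3. The SD of log2 CPM was larger in storage cells for every target except g1136.t1, with a median of 0.48, against 0.08 in whole bodies. Over the 7113 targets detected in all libraries it was larger in storage cells for 97.1%, with medians of 0.81 in storage cells and 0.15 in whole bodies. In 113 of the 150 targets, all 3 whole bodies lay inside the storage cell range, with storage cell libraries on both sides, an arrangement found in 46.4% of the 7113 targets and favoured by the demand for overlap. In 22 targets no storage cell library lay below all whole bodies and in 15 none lay above. The ratio of the group means, storage cells over whole bodies, had a median of 1.12 and ran from 0.593 to 1.94. It was within 1.5-fold either way for 128 targets, with 17 above and 5 below that band.

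In 40 targets, 4 of the 5 storage cell libraries lay above all whole bodies, and in 24 targets 4 of them lay below. The same arrangements held for 12.2% and 13.4% of the 7113 targets detected in all libraries, and since the rule set aside targets with all 5 on 1 side, nothing is read from the counts. Among the 40, the library that did not lie above was replicate 5 in 19 targets, replicate 2 in 8, replicate 1 in 6, replicate 4 in 5 and replicate 3 in 2. Among the 24, the library that did not lie below was replicate 3 in 8 targets, replicate 1 in 6, replicate 2 in 5, replicate 4 in 4 and replicate 5 in 1. Replicate 5 was thus the most frequent exception among targets otherwise above the whole bodies, and it is the library with 35.9% of its counts in 10 targets. The part of that composition in these patterns was not tested.

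Over all 150 targets, the extremes fell mostly in storage cells. The highest CPM was in a storage cell library for 135 targets and in a whole body for 15, and the lowest was in a storage cell library for 128 targets and in a whole body for 22. Replicate 3 was the highest library for 47 targets and the lowest for 5, and replicate 5 was the lowest for 52 and the highest for 10. The median of log2 CPM relative to each target's mean over 8 libraries was 0.33 in replicate 3 and -0.33 in replicate 5, and between 0.02 and 0.09 in the other storage cell libraries. In whole bodies it was between -0.07 and -0.03. Across the 7113 targets detected in all libraries, this median was 0.25, 0.37, 0.27, -0.10 and -0.47 in storage cell replicates 1 to 5. The low median of replicate 5 was thus not particular to the 150. Replicate 3 was also above 0 over the 7113 targets, but replicate 2 was higher there and replicate 1 close to it. The place of replicate 3 as the highest storage cell library did not hold over those targets. The counts of highest and lowest libraries were not taken over all targets.

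The order of the libraries depended on how they were scaled. With TMM-scaled library sizes the median of the 150 was 0.25 in storage cell replicate 5 and 0.24 in replicate 4, and replicate 5 was the highest library for 48 targets and the lowest for 5. With TPM it was -0.45 in replicate 5 and -0.37 in replicate 4, against 0.32 to 0.36 in whole bodies. No whole-body library was the lowest of the 8 for any of the 150 targets on the TPM scale. The TPM that a target of this set had per CPM was, at the median, 0.437 to 0.602 in storage cell libraries and 0.761 to 0.765 in whole bodies. The set as a whole was therefore lower in storage cells on TPM than on CPM.

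**Figure D4:**
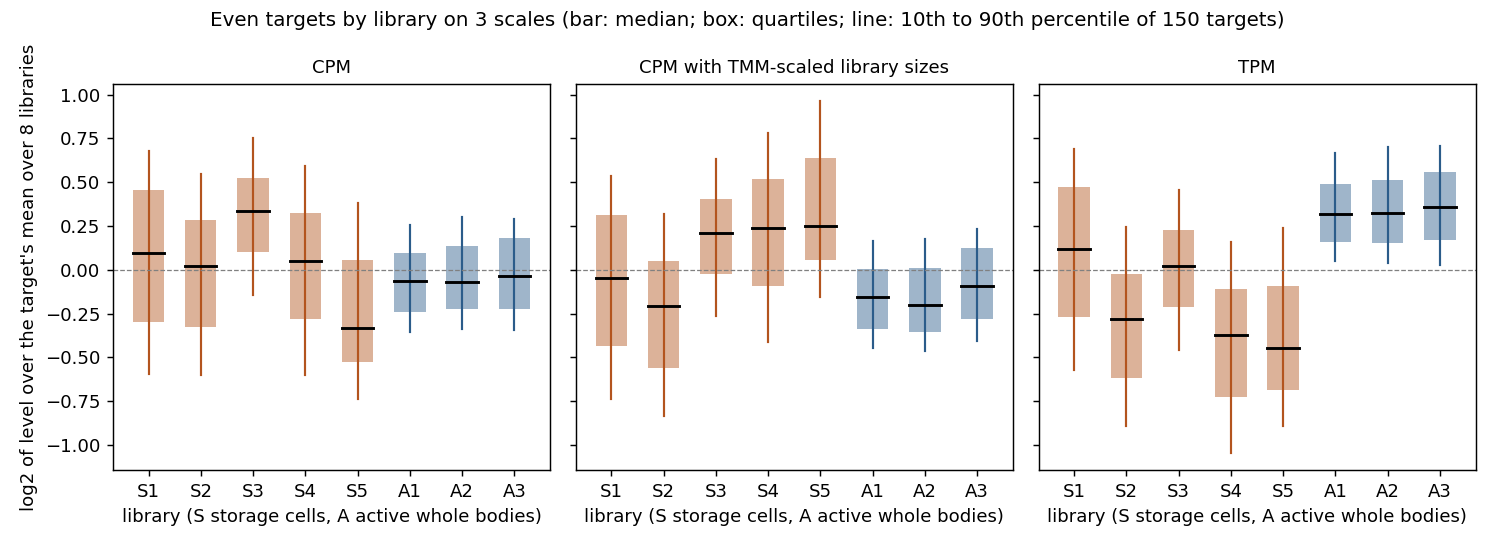
Level of the 150 even targets in each library relative to the target's own mean over 8 libraries (log2, vertical), for 5 storage cell libraries (S) and 3 active whole bodies (A), on CPM, TMM-scaled CPM and TPM, with boxes for quartiles and lines for the 10th to 90th percentile. The medians (bars) of storage cells run from -0.33 to 0.33 in CPM, on both sides of the whole bodies, and from -0.45 to 0.12 in TPM, all below the whole bodies at 0.32 to 0.36.

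Judged on the other scales, many of the 150 were not even. On TPM, 98 stayed within the limit of 3 and 69 also had overlapping groups. On TPM every storage cell library was lower than every whole body for 63 targets and higher for 0, against 28.7% below and 10.3% above among the 7113 targets detected in all libraries. The mean TPM was lower in storage cells for 135 targets and higher for 15, with a median ratio of 0.736. In limma on log2(TPM + 1), 30 of the 150 were called, all lower in storage cells, where 40.4% of the 10483 targets tested were called lower. On TMM-scaled CPM, 98 of the 150 met the rule, and the storage cells lay wholly above for 19 and wholly below for 4, against 27% and 16.9% of the 7113 targets. The set held 2.61% ± 0.31 of all TPM in storage cells (SD, n = 5), against 3.64% ± 0.033 in whole bodies (SD, n = 3), and those groups did not overlap.

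In the fit over all 10483 targets of the species that passed the filter on low counts (edgeR quasi-likelihood test with TMM scaling, adjusted by the Benjamini-Hochberg method), 30.2% of targets were called different in storage cells, with 0.05 as the limit of the adjusted p. Of the 150 even targets, all of which were tested, 2 did. Because the rule used this contrast, nothing is read from the low number. Both were higher in storage cells, a direction called for 13.6% of all targets tested. Target g3603.t1 (1362 bases) had 319, 294, 334, 197 and 124 CPM in storage cells and 120, 143 and 130 CPM in whole bodies, and replicate 5 alone fell among the whole bodies. Target g11953.t1 (1941 bases) had 203, 187, 266, 105 and 151.1 CPM in storage cells and 104, 106 and 98.9 CPM in whole bodies, and replicate 4 alone fell among the whole bodies. The estimated counts of g11953.t1 were fractional in all 8 libraries and were rounded for the fit, so its level is uncertain. Without storage cell replicate 2, 18 of the 150 were called beside 41.7% of all targets tested, and without replicate 4 it was 2 beside 29.3%. Without replicate 1, 3 or 5 it was 1 each, beside 31.7%, 28.5% and 25.9% of all targets. Without whole-body replicate 1, 2 or 3, edgeR called 0, with 2, 2 and 3 at an unadjusted p below 0.05, beside 10.8%, 11.6% and 11.2% of all targets called. Target g3603.t1 had a log2 fold change of 1.03 (SE 0.27) and g11953.t1 of 0.95 (SE 0.30).

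The fitted log2 fold changes of the 150, storage cells over whole bodies, ran from -0.61 to 1.14 with a median of 0.29, and 97 were within 0.5 of 0. Over all targets tested the median was -0.14, and the 10th and 90th percentiles were -4.68 and 1.82. The rule limited the fold changes of the set, so nothing is read from their distance from the median of all targets. Of the 3161 targets called among the 10483, 1422 were higher and 1739 lower in storage cells. With size factors as in DESeq2 the split was 1005 higher and 1979 lower, the median of the 150 was 0.05 and that of all targets was -0.39. On log2(TPM + 1) the 150 had a median of -0.52 and all targets a median of -1.12, so the sign of the set's own median turned with TPM.

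Coding length, which the rule limits, and the division of genes into targets, which it does not use, were compared with those of other targets as a description. The 150 had coding lengths of 624 to 5973 bases with a median of 1570.5, against 1468.5 for the 1238 other targets at or above the same mean CPM and under 9000 bases, and 1336.5 for the 744 even targets of lower mean CPM. CPM is not divided by length, so a choice by CPM favours long targets. Genes with more than 1 target in the table supplied 5 of the 150 (3.33%), against 5.71% of the targets detected in all libraries. No gene supplied more than 1 of the 150. Estimated counts were whole numbers in all 8 libraries for 139 targets, and 11 had a fractional count in some library, as kallisto gives where reads fit more than 1 target, so their levels are uncertain. Among these were g2603.t1, g10916.t2, g3075.t1, g13480.t1, g8767.t1 and g11953.t1, which are described in this report.

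In genes with several targets, the level of the even target and of the gene could differ. Target g1136.t1 was the only one whose log2 CPM varied more among whole bodies than among storage cells. It had 136, 282 and 172 CPM in whole bodies, and its partner g1136.t2 had 159, 40.7 and 173 CPM in the same libraries, so that the gene as a whole had 295, 323 and 345 CPM. In storage cells g1136.t1 had 191, 187, 159, 292 and 119 CPM, and the partner never exceeded 83.2 CPM. In whole-body replicate 2, where g1136.t1 was high, g1136.t2 was low and the gene lay between its other 2 whole-body values.

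Target g8767.t1 (3288 bases) was the nearest to the limit of 3. It had 258, 236, 157, 135 and 132 CPM in storage cells, against 119, 86.4 and 140 CPM in whole bodies. Its lowest value, in whole-body replicate 2, stood beside 27.0 CPM assigned to g8767.t2, which had at most 0.000966 CPM in each other library. Summed over the gene, the ratio of highest to lowest was 2.28 in place of 2.99. For g10916, the even target g10916.t2 made up 78.1% of the gene's CPM, and its partner g10916.t1 was not even, with 142, 269, 705, 240 and 87.6 CPM in storage cells and 427, 437 and 433 CPM in whole bodies. The gene as a whole still stayed within the limit, with a ratio of 2.82. For g11953, whose target g11953.t1 was called higher in storage cells, the gene had a ratio of 2.39, and for g2443 it was 1.86.

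The levels of the 150 kept their order among whole bodies more than among storage cells. The rank correlation of CPM across the 150 targets was 0.951 to 0.963 between whole bodies, 0.501 to 0.759 between storage cell libraries, and 0.548 to 0.717 between a storage cell library and a whole body. Across the 7113 targets detected in all libraries, the corresponding ranges were 0.983 to 0.986, 0.634 to 0.854 and 0.552 to 0.648. These are correlations across targets, which share their libraries and are not independent replicates. Whole-body replicates differed by more than counting noise, with a chi-square per degree of freedom over the 150 targets of 6.37 to 10.1. It was 181 to 406 between storage cell libraries and 132 to 179 between a storage cell library and a whole body, so no pair agreed within counting noise. The value grows with the counts in a library, and storage cell libraries held more, so these ranges are not on a like basis.

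Choosing even targets on 7 libraries and reading the library left out gives their level in data that the choice did not use. When a storage cell library was left out, 116, 126, 134, 126 and 124 of the 150 highest targets chosen on the others were within 3-fold of each of the 7 libraries in replicates 1 to 5. When a whole body was left out, 150, 150 and 145 were. The other whole bodies stayed in the choice, and the 150 had a median ratio of highest to lowest CPM of 1.11 within whole bodies. The whole-body numbers were therefore all but fixed by the choice. Among storage cell libraries the share was lowest in replicate 1, at 77.3%, and highest in replicate 3, at 89.3%. None of the chosen targets had 0 counts in the library left out. Targets that already differ widely among the 7 libraries cannot meet this criterion, so the same share over all targets is no measure for comparison.

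Another criterion, chosen after the values were seen, was a level within 2-fold of the geometric mean of the 7 libraries. It was met by 75.3%, 83.3%, 88.0%, 85.3% and 78.7% of the chosen targets in storage cell replicates 1 to 5 when each was left out, and by 100% in each whole body. Among all targets above 0 in the 7 libraries and at or above the same mean CPM, the chosen ones included, it was met by 54.0% to 63.3% in storage cell libraries and by 55.2% to 56.6% in whole bodies. Where the groups lie far apart, the geometric mean falls between them, which lowers the share over all targets. The choice excluded such targets, and for each whole body the others of its kind stayed in the choice. Nothing is therefore read from the contrast. The 8 choices share most of their targets, so these values are a description.

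**Figure D5:**
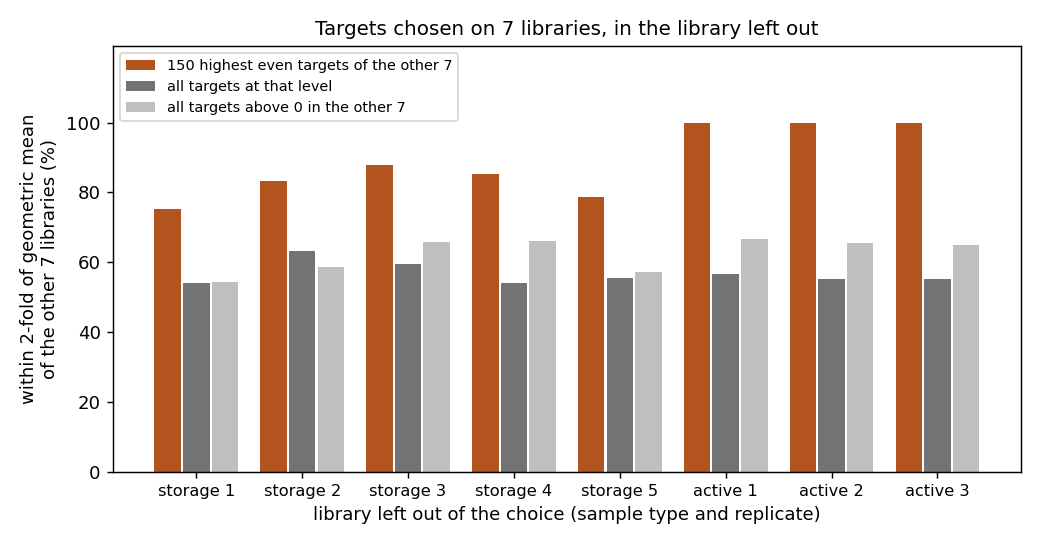
Percent of targets within 2-fold of the geometric mean of the other 7 libraries in the library left out (vertical, from 0), for the 150 highest even targets chosen on those 7 libraries, all targets at that level or above, and all targets above 0 in those 7. Of the chosen targets, 75.3% to 88.0% met it in storage cell libraries and 100% in whole bodies, against 54.0% to 63.3% and 55.2% to 56.6% of all targets at that level. Targets with groups far apart lower the share of all targets, and the choice excluded them, so nothing is read from the contrast.

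Applied to H. exemplaris, the same rule left 437 of the 7653 targets with CPM above 0 in all 8 libraries of that species (5.71%), against 894 of 7113 (12.6%) in R. varieornatus. The 150 highest even targets of H. exemplaris had a median mean CPM of 94.6 and reached 556 CPM, against a median of 173 and a highest value of 5099 in R. varieornatus. Within the limit of 3, 23 targets of H. exemplaris were set aside with storage cells higher and 110 with storage cells lower, against 224 and 71 in R. varieornatus. The transcript sets were not matched between the species, and the difference was not tested.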

How the data were processed

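Libraries were grouped by their titles. The authors deposited 1 table per library with the length, effective length, estimated count and TPM of each target, per the file headers. The submitters' processing notes name bcl2fastq 2 and kallisto 0.46.1; the genome build is not given in the sources used here, nor is the transcript set. The deposited estimated counts are not normalized, and the deposited TPM values are scaled to the same total in each library. Of the lengths, 99.6% divide by 3, as coding lengths do. CPM was computed here from library totals. Counts were rounded for edgeR 4.0.16 (R 4.3.3; filterByExpr, TMM, glmQLFit and glmQLFTest of the 8 R. varieornatus libraries without covariates, two-sided, threshold 0.05). The procedure was tested on simulated data, with its success required only at an equal spread in both groups. Storage cell libraries here varied more than whole bodies, so that requirement does not cover such data. Alternatives used DESeq2 1.42.0, limma 3.58.1 with a pseudocount of 1, other scalings, other limits in the rule, and leaving out each library. A count was called fractional when further than 1e-06 from a whole number. Python 3.11.15 with pandas 2.3.3 was used.

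The members, the tests and the lists were chosen with earlier results of these data known. Targets were named by position: the leading 8 by CPM, the next 3 by TPM, the 3 smallest ratios, those around each limit, the longest, the shortest and those called. The remaining targets named, g1136.t1, the partners of named targets the genes with several targets, and those of the closing observations, were chosen after their values were seen. Gene lists and cell type markers planned by product name were not used, because no identifier could be paired with a name. P-values weigh the difference between the sample types against the spread between these libraries, and both may be technical in part. Counting precision is that of reads amplified by PCR, not of molecules.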

Additional observations from a re-analysis of the deposited data

Results flagged for a closer look

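The storage cell values of the 150 targets, and the share of counts the targets held, were searched for a single library far from the rest of its group. Such a library was found for 8 of the 150 targets and not for the share. In unselected, normally distributed values the search picks out about 1 in 20 by chance. The rule limited the storage cell values of these targets, so that rate does not hold here and nothing is read from the count. In g3429.t1, storage cell replicate 5 had 1090 CPM, against 517 to 631 CPM in the other 4. In g11327.t1, replicate 5 had 137 CPM, against 273 to 323 CPM. In g3653.t1, the longest of the 150, replicate 5 had 118 CPM, against 194 to 208 CPM. In g7025.t1, replicate 5 had 90.5 CPM, against 138 to 154 CPM. In g8861.t1, replicate 1 had 304 CPM, against 114 to 140 CPM. In g7919.t1, replicate 1 had 216 CPM, against 91.9 to 126 CPM. In g9898.t1, replicate 1 had 85.9 CPM, against 138 to 144 CPM. In g6072.t1, replicate 2 had 207 CPM, against 83.9 to 99.2 CPM. Replicate 5 was the library apart in 4 of the 8 targets and replicate 1 in 3. The search used CPM by library totals, and replicate 5 had the lowest TMM factor, 0.667. With TMM-scaled library sizes its low values in g11327.t1, g3653.t1 and g7025.t1 rise relative to the other storage cell libraries. The search was not repeated on that scale, so these values may reflect the scaling of the library.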

How the results depend on the processing

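Which targets count as even depended on the limits and on the scale. A limit of 2 left 166 even targets and 37 of the 150, and a limit of 4 gave 1610, of whose 150 highest 98 were shared. TMM-scaled CPM shared 98 of the 150, TPM 29, and the limit of 3 without the demand for overlap 92. Leaving out single libraries left 875 to 1249 even targets and shared 116 to 145 of the 150. Summing targets by gene, an alternative chosen after the data were seen, shared 146.

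Of the 150, 2 were called in edgeR with TMM. With DESeq2-style size factors 0 were called (7 at an unadjusted p below 0.05), with library totals alone 0 (4 unadjusted), with upper-quartile factors 10, all higher in storage cells, without the filter on low counts 1, higher, with DESeq2 9 (4 higher and 5 lower), with voom and sample weights 34 (33 higher and 1 lower), and with limma on log2(TPM + 1) 30, all lower. Of all targets, these fits called 28.5%, 24.7%, 32.3%, 22.7%, 35.4%, 62.3% and 46.1% in the same order. By direction, upper-quartile factors called 16.5% of all targets higher in storage cells, and the fit without the filter 8.42%. DESeq2 called 12.7% higher and 22.7% lower, voom 21.1% higher and 41.2% lower, and limma on log2(TPM + 1) 40.4% lower. The rule used this contrast, so nothing is read from the counts of the 150 or their direction. Leaving out single libraries gave 0 to 18. Over all targets, voom called 6533 and limma on TPM 4830, and leaving out single libraries gave 1167 to 4319. The median log2 fold change of the 150 was 0.046 with DESeq2-style factors, 0.048 with DESeq2, -0.52 with log2(TPM + 1), and 0.16 to 0.36 with a library left out. The share held by the 150 was 1.03 percentage points lower in storage cells on TPM (-1.03), and -0.021 to 0.361 points with a library left out. Apart from the scalings, which change every value of a library by construction, the cause of these changes was not tested.

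With replicate number as a block, edgeR called 0 targets in all (3127 at an unadjusted p below 0.05) and 0 of the 150 (2 unadjusted). Only 3 numbers occur in both sample types, so nothing is read from the 0 calls. Deviations of same-numbered libraries correlated at 0.01 to 0.04 in the 3 pairs, and 0 of the 3 whole bodies matched its own number best. Same-numbered libraries thus showed no common deviation, and the labels do not say whether they share more than a number.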

Other observations

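The identifiers of 10 of the 150 targets formed 5 pairs with consecutive numbers: g703.t1 and g704.t1, g2978.t1 and g2979.t1, g5561.t1 and g5562.t1, g7770.t1 and g7771.t1, and g9140.t1 and g9141.t1. Their coding lengths differed within each pair, as in g7770.t1 with 1527 bases and g7771.t1 with 3882 bases. Whether consecutive numbers mark neighbouring genes is not stated in the files.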
